A study of Sus scrofa with 12 samples.

Results

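The genes described here are the Notch receptors, their ligands and the HES and HEY transcription factors that Notch switches on, in cultured smooth muscle cells of porcine coronary artery. They were listed by name, with earlier results of these data known. The 9 symbols were looked up through the Ensembl identifiers of the deposited count table, and 8 were found among its 21153 genes. These are the receptors NOTCH2 and NOTCH3, the ligands JAG1 and DLL1, and the transcriptional repressors HES1, HEY1, HEY2 and HEYL. NOTCH1 is not analysed here. All 8 passed the filter on low counts and were tested among 12444 genes.

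Notch is a receptor that works by contact between cells. A ligand of the Jagged or Delta family on one cell binds a Notch receptor on its neighbour, the receptor is cut by ADAM10 or ADAM17 and then by gamma-secretase, and its intracellular part enters the nucleus and joins RBPJ to switch on HES and HEY genes. In the artery wall, JAG1 from endothelium and from neighbouring muscle cells and NOTCH3, the main Notch receptor of arterial smooth muscle, are known for promoting the mature contractile state.

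The cells had been treated for 4 h with PDGF-BB (30 ng/ml) and S100A4 (1 µg/ml) together, with PDGF-BB alone, with S100A4 alone, or with neither (control). PDGF-BB is a mitogen for smooth muscle cells, and S100A4 belongs to the S100 family of small calcium-binding proteins and can be secreted. The design text writes it as oS100A4. Every group was primary culture between passages 6 and 11, kept in medium with 10% fetal calf serum for the 24 h before treatment, and labelled as of a differentiated, contractile phenotype. Each of the 4 groups had 3 libraries, numbered 1 to 3, and the design text names 3 animals without tying a number to an animal.

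The 12 libraries held 21455021 to 32448438 counts, so that 1 CPM (read counts scaled to library size) stood for about 21.5 to 32.4 reads. All 10 smooth muscle markers looked up were detected, though TAGLN had only 83 to 213 counts per library. Of the markers of other cell types, some were at or near 0, among them PTPRC (0 counts in each library), CD163 (0 to 1) and the endothelial receptor KDR (0 to 4). Others were detected in each library: ERG had 874 to 4359 counts, FLT1 675 to 3723, CDH5 378 to 1037, PECAM1 72 to 738 and the macrophage marker CD14 138 to 249. Libraries with the same number varied together across genes in all 18 pairs from different groups (r = 0.746 to 0.908), so each number was treated as a pairing across groups. A pair of fits is used below: one on the 4 group means alone, and one that adds replicate number as a block. In both, differences are log2 fold changes ± SE from edgeR's quasi-likelihood test (two-sided), with p-values adjusted by Benjamini-Hochberg over all 12444 genes and a threshold of 0.05. No label ties a library to an animal, so a p-value reflects only how far these libraries spread, which may be technical. All 3 comparisons with control share the same 3 control libraries.

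Over all 12 libraries, JAG1 and HES1 were the members in which treatment accounted for the largest share of the variation, and they went in opposite directions. With replicate number as a block, JAG1 was 2.65-fold lower with PDGF-BB than in control and HES1 was 1.71-fold higher. The receptor NOTCH3 fell slightly, and NOTCH2 did not pass in any comparison. On group means alone, none of the 8 members passed in any of the 7 comparisons. That count of 0 came from edgeR, with 2 members at an unadjusted p under 0.05 for PDGF-BB, 2 for the combination and 0 for S100A4, each against control. There was 1 for the combination against S100A4, 1 for S100A4 against PDGF-BB, and 0 for the combination against PDGF-BB and for the interaction. DESeq2 on group means called 1 member for PDGF-BB (JAG1) and 2 for the combination (JAG1 and HES1), each against control, and 0 in the other 5. limma-voom called 0 in all 7.

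**Figure D1:**
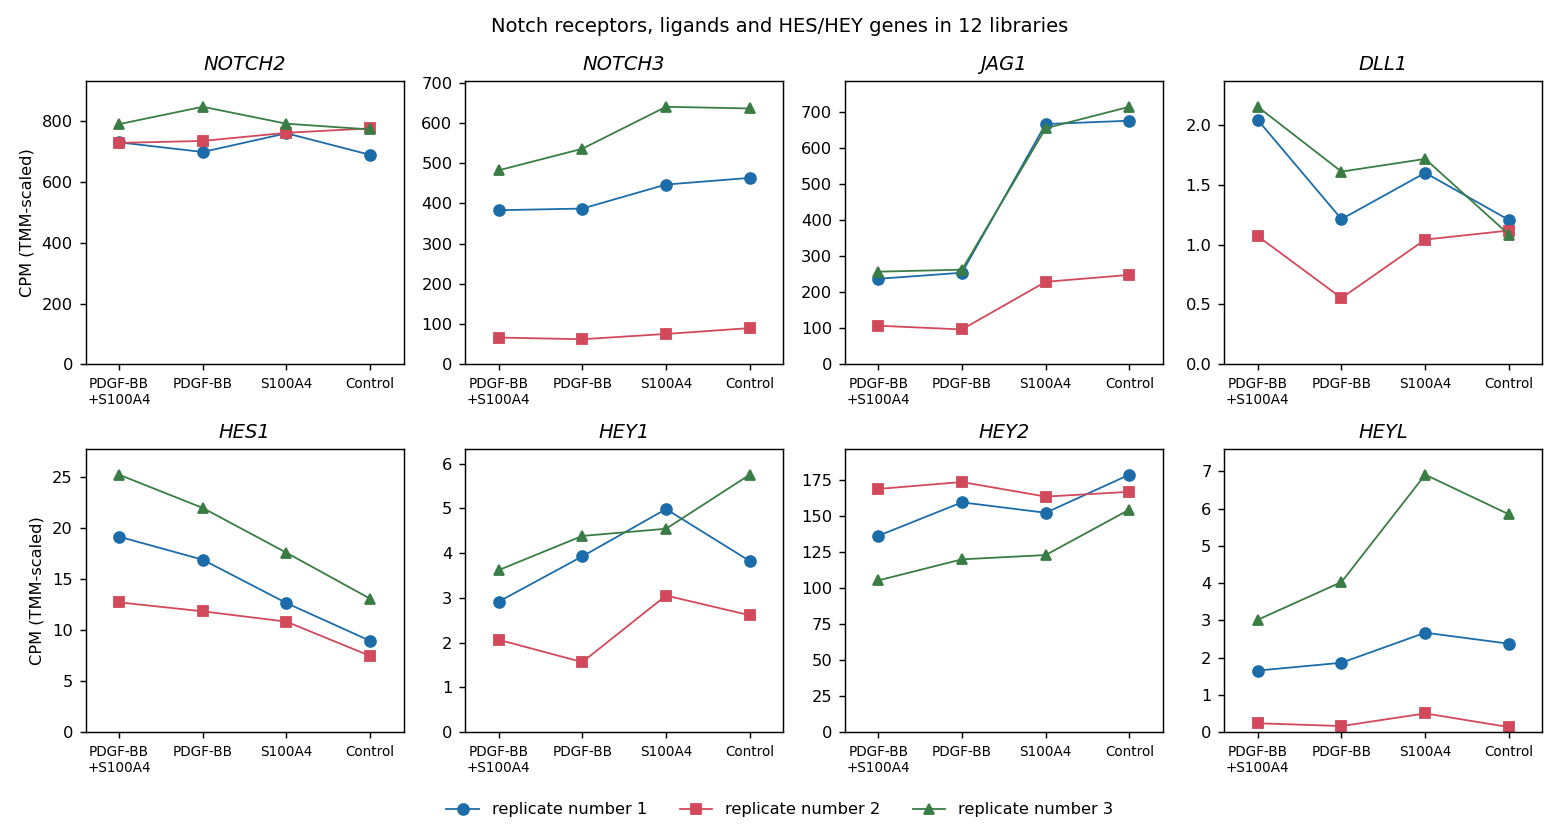
Expression of the 8 Notch genes (CPM, linear axes from 0) in each of the 12 libraries, by treatment, with lines joining libraries of the same replicate number. JAG1 lies lower in both groups with PDGF-BB than in the other groups within every number, HES1 is highest with the combination in every number, and replicate number 2 lies far below the others for NOTCH3 and HEYL.

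JAG1 (ENSSSCG00000007067; RefSeq annotation of Sscrofa11.1, chromosome 17, 19591248 to 19629659) encodes Jagged1, a membrane-bound ligand of the Notch receptors. Its level was 237, 107 and 256 CPM in the combination libraries numbered 1, 2 and 3, and 253, 96.4 and 262 CPM in the PDGF-BB libraries. The S100A4 libraries had 666, 228 and 654 CPM, and the control libraries 675, 248 and 713 CPM. Both groups with PDGF-BB were thus low and both groups without it high within each number, but the control library numbered 2 lay below the highest PDGF-BB libraries, so the groups overlapped.

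Within a number, JAG1 with PDGF-BB was at 0.376, 0.390 and 0.367 times its control level. The fold change was −1.41 ± 0.06 (adjusted p = 1.5e-09 with the block; −1.42 ± 0.57, adjusted p = 0.14 on group means). With the combination it was −1.40 ± 0.06 against control (adjusted p = 3.3e-10 with the block; −1.45 ± 0.57, adjusted p = 0.1 on group means). S100A4 alone gave −0.09 ± 0.06 against control, which did not pass (adjusted p = 0.39 with the block; 95% interval −0.21 to 0.03). The combination against S100A4 gave −1.32 ± 0.06 (adjusted p = 2.3e-09 with the block; adjusted p = 0.15 on group means). The interaction, which is the difference between both effects of PDGF-BB on the log2 scale, did not pass (0.09 ± 0.08, adjusted p = 0.74 with the block; 95% interval −0.08 to 0.26).

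DLL1 (ENSSSCG00000027726; chromosome 1, 198815 to 211346), a ligand of the Delta family, was barely detected, at 17 to 50 counts in a library. It had 2.04, 1.07 and 2.15 CPM with the combination and 1.21, 0.554 and 1.61 CPM with PDGF-BB. It had 1.60, 1.04 and 1.72 CPM with S100A4 and 1.21, 1.12 and 1.08 CPM in control. The combination was highest in numbers 1 and 3, but in number 2 it lay just under control. No comparison of DLL1 passed, in either fit. The values nearest the threshold were those of the combination against control (0.57 ± 0.24, adjusted p = 0.057 with the block, higher in 2 of 3 pairs) and against PDGF-BB (0.64 ± 0.23, adjusted p = 0.13 with the block, higher in 3 of 3 pairs). The value against control passed with the block without control replicate 2 (adjusted p = 0.0083), without PDGF-BB replicate 2 (0.041), without PDGF-BB replicate 3 (0.046) and without all libraries numbered 2 (0.0088), which brought it to 0.58 to 0.87. On group means it passed only without all libraries numbered 2 (0.88, adjusted p = 0.034).

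NOTCH2 (ENSSSCG00000006709; chromosome 4, 100951522 to 101152348) is a receptor found in many cell types, smooth muscle among them. Its level was 731, 729 and 791 CPM with the combination, 699, 736 and 848 CPM with PDGF-BB, 761, 762 and 792 CPM with S100A4, and 689.6, 777 and 773 CPM in control. The 4 groups overlapped, and the range over all 12 libraries was narrow. Its fold change was 0.02 ± 0.04 with PDGF-BB (adjusted p = 0.68 with the block; 95% interval −0.07 to 0.12), 0.05 ± 0.04 with S100A4 (adjusted p = 0.57) and 0.01 ± 0.04 with the combination (adjusted p = 0.9), each against control.

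NOTCH3 (ENSSSCG00000025176; chromosome 2, 62364507 to 62402348), the receptor typical of arterial smooth muscle and pericytes, had 383, 66.4 and 482 CPM with the combination and 387, 62.2 and 536 CPM with PDGF-BB. It had 447, 75.3 and 641 CPM with S100A4 and 464, 89.9 and 636 CPM in control. Within each number both groups with PDGF-BB lay below both groups without it, but between numbers the groups overlapped almost wholly. NOTCH3 fell with PDGF-BB when replicate number was a block (−0.34 ± 0.05, adjusted p = 0.00015; lower in 3 of 3 pairs; −0.27 ± 1.0, adjusted p = 0.93 on group means). It fell with the combination as well (−0.37 ± 0.05, adjusted p = 5.5e-05 with the block; −0.35 ± 1.0, adjusted p = 0.87 on group means). The value with S100A4 did not pass (−0.09 ± 0.05, adjusted p = 0.34 with the block; 95% interval −0.21 to 0.02). The combination against S100A4 gave −0.28 ± 0.05 (adjusted p = 0.00083 with the block; adjusted p = 0.91 on group means).

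HES1 (ENSSSCG00000031356; chromosome 13, 131135970 to 131137865) encodes a basic helix-loop-helix repressor that Notch induces directly in many tissues and that other signals also induce. It had 19.1, 12.7 and 25.2 CPM with the combination, 16.9, 11.8 and 22.0 CPM with PDGF-BB, 12.6, 10.8 and 17.6 CPM with S100A4, and 8.93, 7.46 and 13.1 CPM in control. Within every number the order was the same: combination, PDGF-BB, S100A4, control. Between numbers the groups overlapped, since control replicate 3 lay above the PDGF-BB library numbered 2.

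HES1 rose 1.71-fold with PDGF-BB (0.78 ± 0.08, adjusted p = 2.9e-06 with the block; 0.79 ± 0.32, adjusted p = 0.15 on group means). It rose with S100A4 (0.48 ± 0.08, adjusted p = 0.0016 with the block; 0.48 ± 0.32, adjusted p = 1 on group means) and 1.92-fold with the combination (0.94 ± 0.08, adjusted p = 2.9e-07 with the block; 0.96 ± 0.32, adjusted p = 0.061 on group means). HES1 was higher in 3 of 3 pairs in each of these. The combination was 1.38-fold above S100A4 (0.46 ± 0.08, adjusted p = 0.00023 with the block; adjusted p = 0.4 on group means), whereas its value against PDGF-BB did not pass (0.17 ± 0.07, adjusted p = 0.22 with the block, higher in 3 of 3 pairs). The joint effect was smaller than the sum of the separate log2 effects by 0.32 ± 0.11, an interaction that missed the threshold after adjustment (unadjusted p = 0.013, adjusted p = 0.41 with the block).

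HEY1, HEY2 and HEYL encode basic helix-loop-helix repressors related to HES1 that act in vessels and heart and are regarded as typical Notch targets. HEY1 (ENSSSCG00000006159; chromosome 4, 56859640 to 56863807) had 2.91, 2.07 and 3.62 CPM with the combination and 3.93, 1.56 and 4.38 CPM with PDGF-BB. It had 4.98, 3.05 and 4.54 CPM with S100A4 and 3.82, 2.61 and 5.75 CPM in control. The combination lay under control in all 3 numbers, and the groups overlapped. With the block HEY1 fell with the combination against control (−0.48 ± 0.18, adjusted p = 0.033; adjusted p = 0.46 on group means) and against S100A4 (−0.55 ± 0.18, adjusted p = 0.02; adjusted p = 0.46 on group means).

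HEY2 (ENSSSCG00000004223; chromosome 1, 37219887 to 37231321) had 136, 169 and 105 CPM with the combination and 159.8, 174 and 120.1 CPM with PDGF-BB. It had 153, 164 and 123 CPM with S100A4 and 179, 167 and 155 CPM in control. In numbers 1 and 3 each treatment was below control, and in number 2 the 4 libraries lay close together. With the block HEY2 fell with the combination (−0.31 ± 0.08, adjusted p = 0.0034; lower in 2 of 3 pairs; adjusted p = 0.33 on group means), while the values with PDGF-BB (−0.16 ± 0.08, adjusted p = 0.096 with the block) and S100A4 (−0.20 ± 0.08, adjusted p = 0.12 with the block) did not pass.

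HEYL (ENSSSCG00000038956; chromosome 6, 95442655 to 95459597) had 1.65, 0.238 and 3.02 CPM with the combination and 1.86, 0.163 and 4.03 CPM with PDGF-BB. It had 2.67, 0.502 and 6.91 CPM with S100A4 and 2.37, 0.136 and 5.85 CPM in control. In numbers 1 and 3 both groups with PDGF-BB were lower than both without it, whereas the 4 libraries numbered 2 held only 4 to 13 counts each. With the block HEYL fell with the combination against S100A4 (−1.02 ± 0.20, adjusted p = 0.00079; lower in 3 of 3 pairs; adjusted p = 0.71 on group means) and against control (−0.71 ± 0.21, adjusted p = 0.01; lower in 2 of 3 pairs; adjusted p = 0.77 on group means). The value with PDGF-BB against control did not pass (−0.43 ± 0.19, adjusted p = 0.08 with the block).

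These calls of the HEY genes rested on few libraries. For the combination against control, the call of HEY1 was lost in 6 of the 15 fits with the block that left out a library or a number (adjusted p up to 0.2), that of HEY2 in 2 (without all libraries numbered 1 or 3, adjusted p up to 0.091) and that of HEYL in 3, all of which left out libraries numbered 3 (adjusted p up to 0.46). HEYL was also lost in DESeq2 with the block (adjusted p = 0.085). Against S100A4, the call of HEY1 was lost in 5 of those fits (adjusted p up to 0.16) and that of HEYL in 1, without all libraries numbered 3 (adjusted p = 0.11). HEY2 with PDGF-BB passed with the block under upper-quartile scaling (adjusted p = 0.035), without control replicate 2 (0.0023), without combination replicate 2 (0.044) and without all libraries numbered 2 (0.00071). HEY2 with S100A4 passed without control replicate 2 (adjusted p = 0.0047), without combination replicate 2 (0.048) and without all libraries numbered 2 (0.0016). HEYL with PDGF-BB passed without control replicate 2 (adjusted p = 0.033) and without all libraries numbered 2 (0.045). HEY2 also passed for the combination against PDGF-BB and against S100A4 without all libraries numbered 2 (adjusted p = 0.0083 and 0.0046) and without combination replicate 2 alone (adjusted p = 0.037 and 0.025). HEY1 passed for S100A4 against PDGF-BB without S100A4 replicate 3 (adjusted p = 0.024). In contrast, the calls of JAG1 and NOTCH3 with PDGF-BB and with the combination, and those of HES1 with all 3 treatments, passed in each of these fits.

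**Figure D2:**
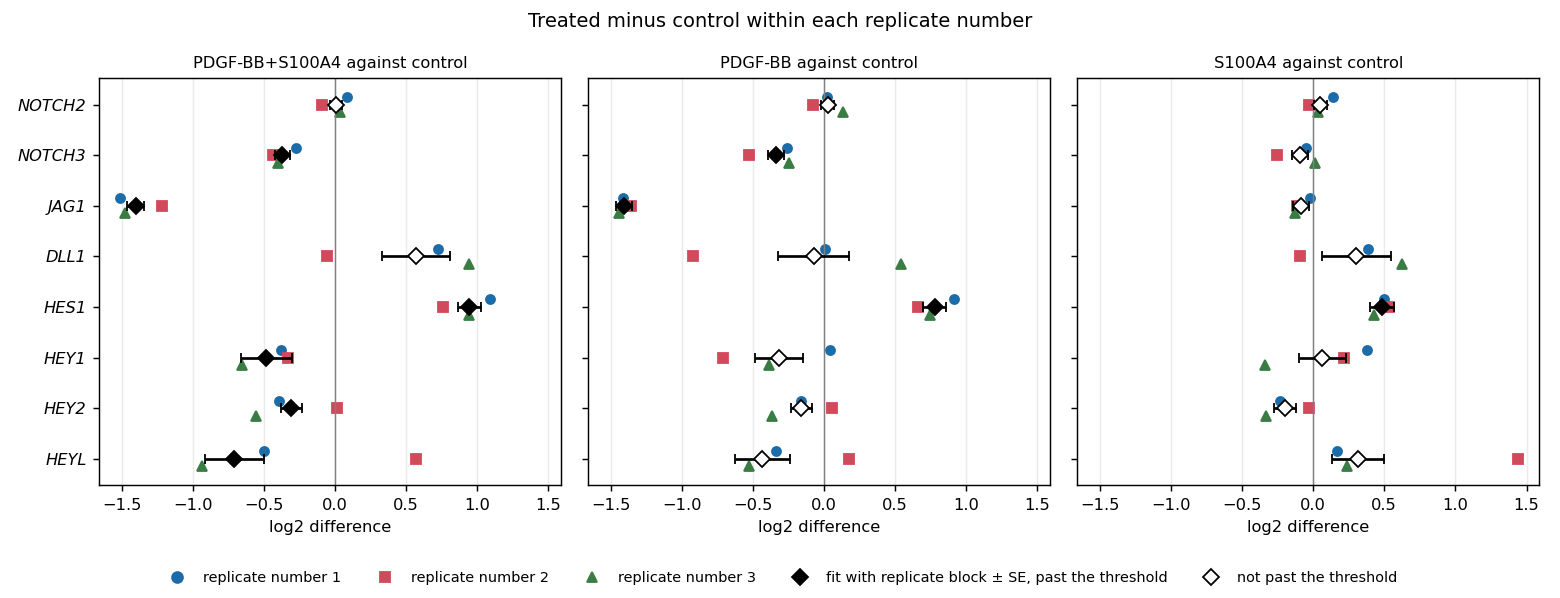
Log2 difference of treated against control libraries (horizontal axis) for the 8 genes, with a coloured point for each replicate number and a diamond with its SE for the edgeR fit with replicate number as a block, filled where it passed the threshold. JAG1 lies between −1.51 and −1.21 in every pair with PDGF-BB present, HES1 lies right of 0 in every pair of all 3 comparisons, and the pair numbered 2 stands apart for DLL1, HEY2 and HEYL.

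Set against all genes tested, these counts were as follows. With PDGF-BB against control, 1 of 8 members was higher (HES1) and 2 were lower (JAG1 and NOTCH3) with the block, where 24.3% of all genes were called higher and 24.5% lower. On group means 14.7% of genes were called. The members' median log2 change was −0.24 with the block, beside −0.02 over all genes tested. With S100A4 against control 1 of 8 was higher (HES1) and 0 were lower with the block, where 6.46% of genes were higher and 4.28% lower, against 0.563% called on group means. The members' median was 0.06, beside −0.02 over all genes tested. With the combination against control 1 of 8 was higher (HES1) and 5 were lower (JAG1, NOTCH3, HEY1, HEY2 and HEYL) with the block. Of all genes, 27.5% were higher and 28.6% lower, against 22.0% called on group means, and the medians were −0.34 for the members and −0.03 for all genes tested. The shares of members called with PDGF-BB were thus near those of all genes, and for the combination 5 of 8 lower stands beside 28.6%. The members were chosen with earlier results of these data known, so these shares and medians are a description and not a test.

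Among treatments, S100A4 added to PDGF-BB gave 0 calls in both fits, where 5.11% of genes were higher and 2.03% lower with the block and 0.273% were called on group means. At an unadjusted p under 0.05 there were 2 members with the block (DLL1 and HES1) and 0 without it, and DESeq2 with the block called 0. PDGF-BB added to S100A4 gave 1 member higher (HES1) and 4 lower (JAG1, NOTCH3, HEY1 and HEYL) with the block, where 24.9% of genes were higher and 22.9% lower, against 15.0% called on group means. S100A4 against PDGF-BB, the single treatments set against each other, gave 3 members higher and 1 lower with the block, where 20.6% of genes were higher and 22.5% lower, against 11.1% called on group means. JAG1 (1.32 ± 0.06, adjusted p = 1.5e-09), HEYL (0.75 ± 0.19, adjusted p = 0.005) and NOTCH3 (0.24 ± 0.05, adjusted p = 0.0023) were higher with S100A4, and HES1 was lower (−0.29 ± 0.08, adjusted p = 0.0068), all with the block. On group means their adjusted p-values were 0.18 (JAG1), 0.85 (HEYL), 0.95 (NOTCH3) and 0.68 (HES1). The call of HEYL was lost in 3 fits that left out libraries numbered 3 (adjusted p up to 0.14), and that of HES1 without all libraries numbered 1 or 3 (adjusted p up to 0.1). For the interaction no member was called in either fit or in DESeq2 with the block. It called 0.0161% of all genes above 0 and 0.0964% below 0 with the block and 0% on group means, and at an unadjusted p under 0.05 it took 1 member with the block (HES1) and 0 without it.

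Replicate number set the level of several members more than treatment did. NOTCH3 averaged 73.5 CPM over the 4 libraries numbered 2, against 420.3 CPM in number 1 and 574 CPM in number 3. HEYL averaged 0.26 CPM in number 2, against 2.14 CPM in number 1 and 4.95 CPM in number 3. JAG1 averaged 169.8 CPM in number 2, against 458 and 471 CPM in numbers 1 and 3. NOTCH2 did not follow this split, with 720.1, 751 and 801 CPM in numbers 1, 2 and 3, and HEY2 was highest in number 2 (157, 168 and 126 CPM).

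Of the sum of squares of log2 CPM, replicate number held 98.4% for NOTCH3, 93.3% for HEYL, 67.6% for HEY1, 63.2% for NOTCH2 and 62.9% for HEY2. It held 48.9% for DLL1, 48.7% for JAG1 and 47.6% for HES1. Treatment held 50.9% for JAG1 and 50.6% for HES1, and no more than 29.4% for any other member, that one being DLL1.

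**Figure D3:**
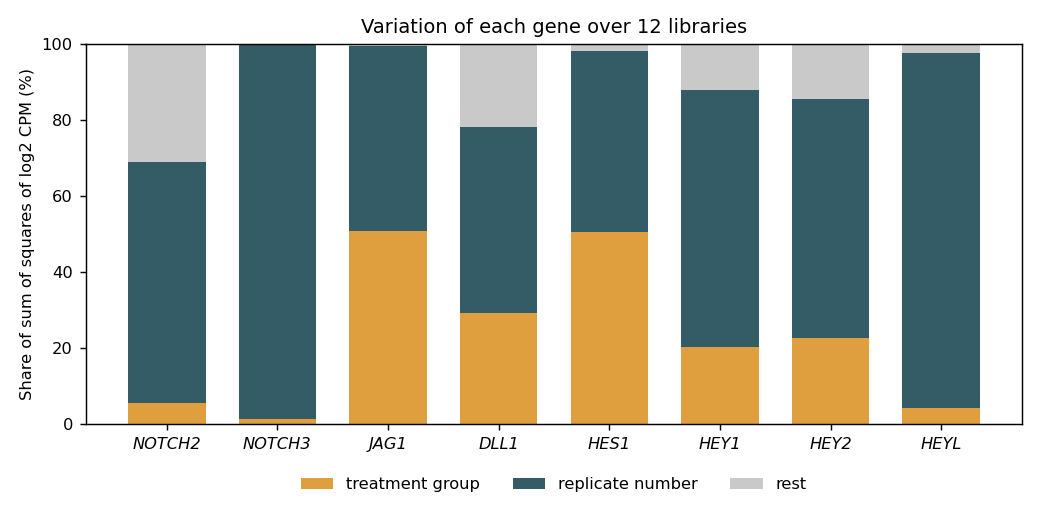
Share of the sum of squares of log2 CPM over 12 libraries (%) that lay between treatment groups, between replicate numbers and in the rest, for each of the 8 genes. Treatment held about as much as replicate number for JAG1 and HES1, and 1.44% for NOTCH3.

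Markers of cell type differed with replicate number too. The summed level of the 10 smooth muscle markers was 8390 to 9940 CPM in libraries numbered 2 and 18500 to 23300 CPM in the other libraries. MYH11, smooth muscle myosin, averaged 348 CPM in number 2 and 1330 CPM in the others. Of 9 fibroblast markers, 8 were found and tested, and their sum was 1080 to 1240 CPM in number 2 and 340 to 529 CPM in the others. LUM averaged 721 CPM in number 2 and 266 CPM in the others, whereas MFAP5 (21.5 against 57.8 CPM) and TCF21 (16 against 23.8 CPM) were lower in number 2. All 8 pericyte markers were found and 7 tested. The 8 summed to 258 to 387 CPM in number 2 and 757 to 1450 CPM in the others, most of it CSPG4. RGS5 went the other way (6.57 CPM in number 2, 0.963 CPM in the others), and ABCC9 differed little (1.15 against 1.01 CPM). Of 13 endothelial markers, 10 were found and 8 tested. The 10 summed to 215 to 344 CPM in number 2 and 102 to 212 CPM in the others, though ESAM was lower in number 2 (1.22 against 2.4 CPM). All 7 macrophage markers were found and 3 tested, and the 7 summed to 7.51 to 11.9 CPM over all libraries. In a bulk library, fewer cells of a type and less RNA per cell cannot be told apart, and the part of these markers in the levels of NOTCH3, JAG1 and HEYL was not tested.

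Some markers also moved with treatment. Endothelial markers summed to 210 to 326 CPM with the combination, 187 to 344 CPM with PDGF-BB, 102 to 224 CPM with S100A4 and 103 to 215 CPM in control. ERG (1.26, adjusted p = 7.8e-07) and FLT1 (0.57, adjusted p = 3.3e-06), the most abundant of them, rose with PDGF-BB with the block. TIE1 (0.45, adjusted p = 0.02) and EMCN (1, adjusted p = 0.031) rose as well with the block, at 0 to 589 and 0 to 58 counts in a library. CDH5 (0.02, adjusted p = 0.83), PECAM1 (0.19, adjusted p = 0.054), ESAM (−0.33, adjusted p = 0.21) and TEK (−0.28, adjusted p = 0.62) did not pass. Pericyte markers summed to 352 to 1450 CPM with the combination, 387 to 1440 CPM with PDGF-BB, 263 to 920 CPM with S100A4 and 258 to 927 CPM in control. CSPG4 was higher with PDGF-BB (0.75, adjusted p = 1.4e-06 with the block). ABCC9, at 13 to 40 counts in a library, was lower (−0.74, adjusted p = 0.019 with the block). RGS5, KCNJ8, NDUFA4L2, COX4I2 and MCAM did not pass. Smooth muscle markers summed to 8390 to 20200 CPM with the combination, 8520 to 21200 CPM with PDGF-BB, 8450 to 19900 CPM with S100A4 and 9940 to 23300 CPM in control. With PDGF-BB, MYH11 (−0.51, adjusted p = 4.6e-05), SMTN (−0.69, adjusted p = 1.3e-07), LMOD1 (−0.70, adjusted p = 1.3e-05) and MYOCD (−0.58, adjusted p = 0.004) fell with the block, as did MYLK (−0.38, adjusted p = 7.5e-06). DES rose (0.52, adjusted p = 0.00016), whereas ACTA2 (−0.05, adjusted p = 0.44) and CNN1 (−0.08, adjusted p = 0.21) did not pass, nor did TAGLN or ACTG2. Fibroblast markers summed to 340 to 1110 CPM, 365 to 1080 CPM, 351 to 1200 CPM and 341 to 1240 CPM in the same order of groups. Their members moved both ways with PDGF-BB with the block: TCF21 (0.94, adjusted p = 3.9e-06) and DPT (0.37, adjusted p = 0.0027) rose, LUM (−0.17, adjusted p = 0.022) and PI16 (−0.31, adjusted p = 0.012) fell, and the other 4 did not pass. Macrophage markers summed to 7.89 to 9.57 CPM with the combination, 7.51 to 9.71 CPM with PDGF-BB, 9.05 to 11.1 CPM with S100A4 and 9.34 to 11.9 CPM in control. CD14 fell with PDGF-BB (−0.37, adjusted p = 0.0073 with the block), whereas CD68 and CSF1R did not pass. The part of any of these markers in the drop of JAG1 and NOTCH3 was not tested.

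The other genes of the pathway were taken from lists of ligands, modifying enzymes, proteases, ubiquitin ligases, transcription factors and corepressors. Of 68 such genes 63 were found and 58 tested. NCSTN, FBXW7, KAT2B, CREBBP, MAML1, MAML2, RBPJ, NOTCH4 and HES2 are named after their values were seen, to show their lists. With PDGF-BB against control 13 were higher, 15 lower and 30 did not pass with the block (5 and 2 on group means), with a median of 0.00 beside −0.02 over all genes. With the combination 14 were higher and 12 lower with the block (8 and 2 on group means), and with S100A4 5 were higher and 1 lower with the block (1 and 0 on group means). Of all genes tested, 24.3% were higher and 24.5% lower with PDGF-BB with the block. With the combination these shares were 27.5% and 28.6%, and with S100A4 6.46% and 4.28%. On group means 14.7% (PDGF-BB), 22.0% (combination) and 0.563% (S100A4) of all genes were called in either direction. Of the remaining classical ligands, DLL3 had 0 counts in each library and DLL4 0 to 10. NOTCH4, the receptor of endothelium, had 2 to 24 counts and did not pass with PDGF-BB (−0.73 ± 0.47, adjusted p = 0.22 with the block).

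Among the 9 proteases and protease subunits that cut the receptor, ADAM17 was the one that passed in all 3 comparisons with control, on group means as well. It encodes a metalloprotease that cuts Notch and many other membrane proteins. Its level was 59.0, 60.2 and 59.6 CPM with the combination, 46.1, 49.7 and 49.0 CPM with PDGF-BB, 44.9, 49.7 and 44.3 CPM with S100A4, and 34.9, 36.4 and 35.1 CPM in control. Control libraries lay below all treated libraries, and combination libraries above all others, without overlap. ADAM17 rose by 0.75 ± 0.05 with the combination (adjusted p = 1.7e-08), by 0.45 ± 0.05 with PDGF-BB (adjusted p = 4e-06) and by 0.38 ± 0.05 with S100A4 (adjusted p = 0.00011), all with the block. FURIN, which cuts the Notch precursor in the secretory pathway, rose with the combination (0.38 ± 0.04, adjusted p = 5.8e-07) and with PDGF-BB (0.27 ± 0.03, adjusted p = 2.6e-05), both with the block. APH1B, a subunit of gamma-secretase, fell with the combination (−0.54 ± 0.06, adjusted p = 3.2e-06 with the block). The gamma-secretase subunit NCSTN fell with PDGF-BB by a small amount (−0.13 ± 0.04, adjusted p = 0.016 with the block). On group means ADAM17 was the only one of the 9 to pass in any comparison with control. With PDGF-BB, FURIN had an adjusted p of 0.45 on group means and NCSTN 0.24.

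Of 13 ubiquitin ligases and sorting factors, 5 were higher and 3 lower with PDGF-BB with the block, where 24.3% of all genes were higher and 24.5% lower. NEURL1, a ligase of the Neuralized family that in Drosophila acts on Notch ligands, rose (0.52 ± 0.05, adjusted p = 9.1e-07), with 111, 102 and 129 CPM with PDGF-BB against 75.5, 74.6 and 87.8 CPM in control. DTX3, of the Deltex family, fell (−0.41 ± 0.05, adjusted p = 2.5e-05). FBXW7, which marks the intracellular part of Notch and other proteins for degradation, rose (0.37 ± 0.07, adjusted p = 0.00047). DTX2 rose with PDGF-BB (0.31 ± 0.06, adjusted p = 0.0014) and with S100A4 (0.31 ± 0.07, adjusted p = 0.0071). These values are with the block. On group means NEURL1 (adjusted p = 0.024) and FBXW7 (0.038) passed with PDGF-BB, whereas DTX3 (0.21) and DTX2 (0.092) did not. None of the 13 passed with S100A4 on group means. DTX1, another Deltex gene, and MFNG, a fringe glycosyltransferase, were chosen after their values were seen and were barely detected. DTX1 had 5, 22 and 22 counts with PDGF-BB against 1, 2 and 7 in control (1.99 ± 0.47, adjusted p = 0.003 with the block). MFNG had 7, 29 and 26 counts with PDGF-BB against 0, 4 and 11 in control (1.77 ± 0.49, adjusted p = 0.0081 with the block). At such counts the fold changes are imprecise. On group means neither DTX1 (adjusted p = 0.16) nor MFNG (0.23) passed with PDGF-BB.

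In the nucleus, RBPJ, the DNA-binding partner of cleaved Notch, did not pass with PDGF-BB (0.06 ± 0.08, adjusted p = 0.56 with the block). Of 9 genes of the transcription complex, 2 were higher and 5 lower with PDGF-BB with the block, where 24.3% of all genes were higher and 24.5% lower. The acetyltransferase KAT2A rose (0.48 ± 0.06, adjusted p = 9.6e-06) and the coactivator MAML1 rose (0.24 ± 0.04, adjusted p = 0.00035), while KAT2B (−0.39 ± 0.06, adjusted p = 0.00013), CREBBP (−0.36 ± 0.05, adjusted p = 3.5e-05) and MAML2 (−0.22 ± 0.07, adjusted p = 0.028) fell. On group means KAT2A (adjusted p = 0.0095), MAML1 (0.02) and CREBBP (0.04) passed, whereas KAT2B (0.17) and MAML2 (0.56) did not. Of 12 genes tested from the corepressor list, 2 were higher and 3 lower with PDGF-BB with the block, beside the same 24.3% and 24.5% of all genes. That list also held KYAT1, which encodes an aminotransferase and not a corepressor. CIR1, a corepressor that binds RBPJ, fell (−0.55 ± 0.06, adjusted p = 7.7e-06; −0.55 ± 0.11, adjusted p = 0.009 on group means). HDAC1, a histone deacetylase, rose with the combination (0.55 ± 0.05, adjusted p = 3.1e-07), with PDGF-BB (0.23 ± 0.05, adjusted p = 0.00097) and with S100A4 (0.34 ± 0.05, adjusted p = 0.00028), all with the block. On group means it did not pass with PDGF-BB (adjusted p = 0.1). With S100A4, the corepressors TLE4 (0.26 ± 0.07, adjusted p = 0.023) and TLE1 (−0.32 ± 0.08, adjusted p = 0.025) went opposite ways with the block. None of the 12 genes of this list passed with S100A4 on group means.

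Of the other HES and related genes, 5 were tested, and 1 was higher with PDGF-BB with the block (HES2, 1.20 ± 0.44, adjusted p = 0.037, with 1 to 107 counts in a library). HES2 had 3, 107 and 15 counts with PDGF-BB against 8, 39 and 1 in control, so it was lower in number 1. On group means HES2 did not pass (adjusted p = 0.7). The 1 of 5 called higher with the block stands beside 24.3% of all genes. BHLHE41, a repressor of the circadian clock, rose with S100A4 (0.92 ± 0.26, adjusted p = 0.036 with the block), with 2.94, 10.7 and 4.58 CPM with S100A4 against 2.21, 5.02 and 2.36 CPM in control. None of these 5 genes passed with S100A4 on group means. HES4, chosen after its values were seen, followed the split of NOTCH3 by replicate number. It had 4.91 to 9.65 CPM in libraries numbered 2 and 60.5 to 93.2 CPM in the others, and did not pass with PDGF-BB (0.23 ± 0.12, adjusted p = 0.14 with the block).

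**Figure D4:**
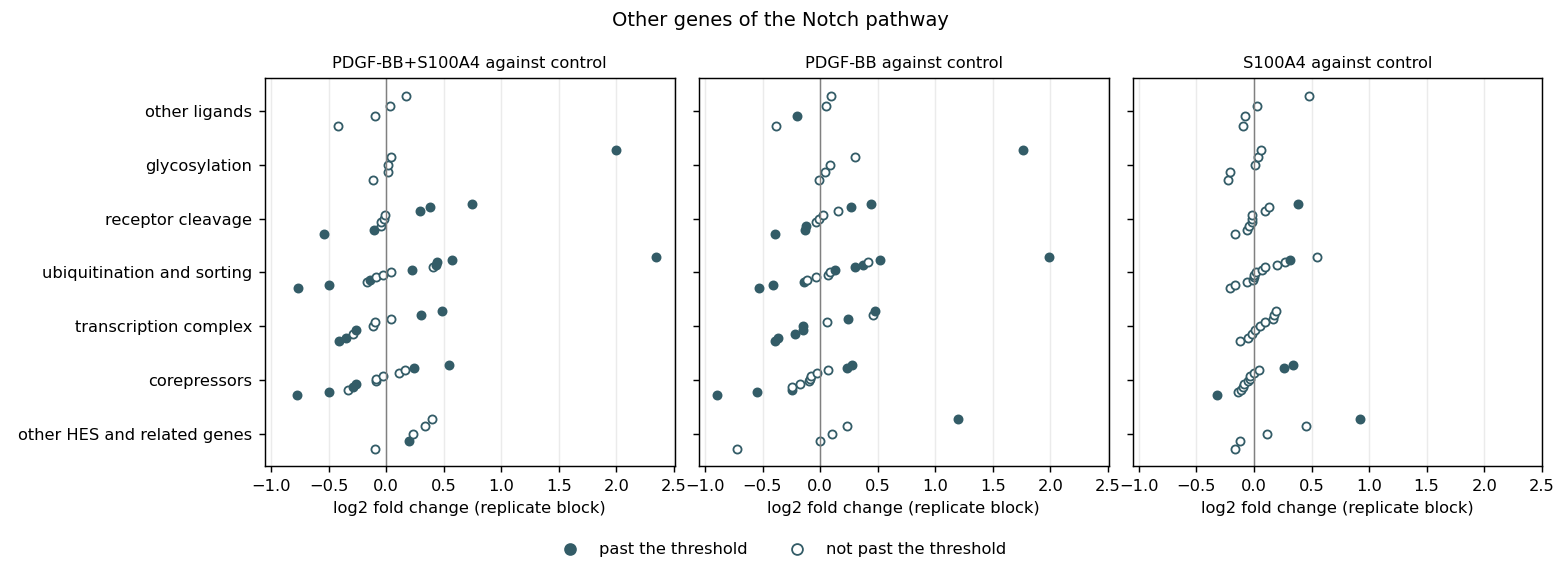
Log2 fold change with replicate number as a block (horizontal axis) for the other tested Notch pathway genes apart from NOTCH4, by list and comparison with control, with filled points past the threshold. Points lie on both sides of 0 in the lists for receptor cleavage, ubiquitination and sorting, transcription complex and corepressors, and both groups with PDGF-BB have more filled points than S100A4 alone.

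The genes most like each member were found by Pearson's r of log2 CPM over the 12 libraries, after the mean of each replicate number was subtracted. The comparison took the genes with a symbol and a mean of at least 1 log2 CPM. These r values are a description: they share the libraries and their scaling, and they mostly follow the 4 treatments. For JAG1 they were the kinase gene DYRK1B (r = 0.999), the pro-apoptotic gene BMF (0.998) and the Golgi protein gene GOLGA5 (0.996). DYRK1B had a log2 change of −1.75 and BMF of −2.59 with PDGF-BB with the block, larger than that of JAG1. For HES1 they were the lymphatic growth factor VEGFC (r = 0.995), the cytokine TNFSF9 (0.994) and the transcription factor ETS1 (0.993). ETS1 had 1.28 with the combination, 0.98 with PDGF-BB and 0.62 with S100A4, beside 0.94, 0.78 and 0.48 for HES1.

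For NOTCH3 they were TMEM42 (r = 0.987), the membrane ubiquitin ligase gene MARCHF2 (0.983) and RCN1 (0.983). For HEY1 they were the cation channel TRPC1 (0.944), the helicase RECQL (0.939) and RAB1A (0.936). For HEY2 they included MTERF2 (0.942) and the calmodulin gene CALM2 (0.929). For HEYL they were HIF1A (0.924), FGF2 (0.913) and GPR155 (0.909). For DLL1 they were FILIP1 (0.88), NMT1 (0.864) and SDCBP (0.859), and for NOTCH2 ADCK1 (0.9), COPB2 (0.878) and NUP214 (0.803). Among the members themselves, JAG1 and NOTCH3 went together within a number (r = 0.917), JAG1 and HES1 went apart (−0.876), and so did NOTCH3 and HES1 (−0.872). Without subtracting the means of the numbers, JAG1 and HES1 had r = −0.04, and NOTCH3 and HEYL had r = 0.962.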

How the data were processed

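RNA sequencing was done on 12 libraries (3 for each of 4 groups). The authors deposited whole-number read counts per Ensembl gene, not normalized. Per the submitters' processing notes, CASAVA 1.8.2, STAR 2.4, featureCounts 1.4.6 and build Sscrofa11.1 were used. Their roles, the annotation release, the strand setting and the handling of multi-mapping reads are, for this table, not given in the sources used here, so counts of overlapping or antisense genes are uncertain. Totals were 21455021 to 32448438 counts. Symbols were matched by Ensembl identifier, and coordinates by symbol from RefSeq on the same build. No sequences were printed.

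Genes were kept by filterByExpr (minimum count 10, by group), scaled by TMM and tested with edgeR 4.0.16 (R 4.3.3) in a fit of all 12 libraries on group means. SE was the log2 fold change over the square root of F. Replicate numbers were taken as pairing the samples because deviations from group means correlated at 0.746 to 0.908 in all 18 same-numbered pairs and at −0.676 to 0.136 in the other 36. This comes from the data and not from a label. The biological coefficient of variation that edgeR estimated over all genes fell to 5.14% with the block, against 27.2% on group means. Chi-square per gene between libraries of a group was 22.9 to 163, so none was a repeat of another. Log2 CPM used a prior count of 2. Members and lists were chosen with earlier results of these data known. Named were all members, up to 6 pathway genes per comparison with control by adjusted p with the block, and the 3 genes most like each member; some further pathway genes were chosen after their values were seen, as said beside them. Some genes that these rules name are not reported here. Alternatives were RLE and upper-quartile scaling, DESeq2 1.42.0, limma-voom (limma 3.58.1), no filter and a stricter one, the groups compared alone, and leaving out libraries. The fits were also run on counts simulated with the levels of each replicate number and the spread of the block fit. Because the block was built into those counts, they cannot test whether replicate numbers pair the samples.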

Additional observations from a re-analysis of the deposited data

How the results depend on the processing

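On group means 0 of the 8 Notch genes passed in each of the 7 comparisons, and with the replicate block 3 passed for PDGF-BB against control, 1 for S100A4 against control, 6 for the combination against control, 5 for the combination against S100A4, 4 for S100A4 against PDGF-BB, and 0 for the combination against PDGF-BB and for the interaction. DESeq2 on group means gave 1 for PDGF-BB and 2 for the combination against control. RLE and upper-quartile scaling, limma-voom, no filter, a stricter filter and the groups compared alone gave 0 on group means in all 7. Leaving out a library or a number gave 0 to 1 on group means for PDGF-BB against control, 0 to 3 for the combination against control, 0 to 1 for the combination against S100A4 and 0 to 1 for S100A4 against PDGF-BB. With the block it gave 3 to 5 for PDGF-BB against control, 1 to 2 for S100A4 against control, 3 to 7 for the combination against control, 0 to 1 for the combination against PDGF-BB, 4 to 6 for the combination against S100A4 and 2 to 4 for S100A4 against PDGF-BB. On group means without the libraries numbered 2, JAG1 passed with PDGF-BB against control (−1.41, adjusted p = 4e-04). It also passed there for the combination against S100A4 (0.00038) and S100A4 against PDGF-BB (0.00073). For the combination against control JAG1 (−1.48, 0.00013), HES1 (1.02, 0.033) and DLL1 (0.88, 0.034) passed there. HES1 also passed in that comparison without control replicate 3 (0.047) and without combination replicate 2 (0.032). The cause was not tested. Of 19 member values called with the block, 12 kept the call in all 18 alternatives with the block, and no called value changed sign. In fits on group means 92 of 1211 values changed sign and with the block 39 of 1008, none of them past the threshold. The stricter filter left out DLL1, HEY1 and HEYL. Depth limits DLL1 and HEYL: 17 to 50 and 4 to 181 counts per library. The count of all genes called on group means depended on single libraries. For PDGF-BB against control it was 1830, and 1119 without control replicate 1, 1167 without control replicate 3 and 1209 without PDGF-BB replicate 1. For S100A4 against control it was 70, and 36 or 40 without control replicate 1 or 3. For the combination against PDGF-BB it was 34, and 8, 19 or 12 without PDGF-BB replicate 1, 2 or 3 and 20 without combination replicate 3. For the combination against S100A4 it was 1862, and 1139 without combination replicate 1 and 1032 or 1150 without S100A4 replicate 1 or 3. For S100A4 against PDGF-BB it was 1382, and 877 without PDGF-BB replicate 1 and 769 or 850 without S100A4 replicate 1 or 3. Without all libraries numbered 1 these 5 counts were 131, 1, 1, 10 and 5, and that of the combination against control 502 (of 2732); without those numbered 3 they were 377, 0, 0, 274 and 176, and 991. With the block, S100A4 against control had 1336, and 827 without control replicate 3, 863 or 697 without S100A4 replicate 1 or 2, and 612 or 608 without all libraries numbered 1 or 3. The combination against PDGF-BB had 888 with the block, and 508 without combination replicate 3 and 379 or 326 without all libraries numbered 1 or 3. The interaction had 14 with the block and 1 to 117 over all left-out libraries.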
